A study of Mus musculus with 2 samples.

Results

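Ifng, Gzma, Gzmb, Prf1, Ccl5, Cxcr3, Cxcl9 and Cxcl10 were followed across the cells of the mouse heart under pressure overload. These 8 genes, of 56954 features in the deposited matrix, form the type 1 lymphocyte programme and its chemokine response, and they were chosen by name, not by their values. All 8 were detected, with 326 (Cxcr3) to 28637 (Ccl5) UMIs in the whole library. A UMI is a unique molecular identifier and stands for a captured transcript.

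The cells came from hearts of 4 Nts KO mice (knocked out for neurotensin) and 3 control mice, collected on day 7 after TAC, an operation that constricts the transverse aorta and so loads the left ventricle with pressure. The labels give an age of 6 to 8 weeks and name no knockout allele, driver or sham-operated group, and their genotype entry reads WT for the whole pool. Viable non-cardiomyocytes of all mice, tagged per mouse with hashtag antibodies, were sorted into a single tube and sequenced as 1 gene expression library with a 10x 3′ kit. The hashtag library was not analysed here and no cell is tied to a mouse, so knockout and control hearts were not compared and every value below is an average over the pool.

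Interferon-gamma, encoded by Ifng, is the signature cytokine of NK cells, CD8 T cells and type 1 helper T cells. The same cells kill targets by releasing perforin (Prf1), which opens membranes, and the serine proteases granzyme A (Gzma) and granzyme B (Gzmb), and they secrete the chemokine CCL5. Cells that sense interferon-gamma make CXCL9 and CXCL10, whose receptor CXCR3 sits on activated T and NK cells and draws them in. CXCL10 is also induced by type I interferons and by NF-kB, whereas CXCL9 is known as the more strictly interferon-gamma-dependent of the pair.

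The library held 69993559 UMIs in 9369 barcodes. The median barcode had 6663 UMIs and the range was 2567 to 42567. After 357 called doublets were set aside, 9012 cells with 65360456 UMIs remained. Cells were sorted into gates by how many marker genes of a cell type had a UMI, without use of the 8 genes. The NK gate (at least 3 of 8 NK receptor genes) took 87 cells and the CD8 T gate (at least 4 of 8 T cell genes, a UMI of Cd8a or Cd8b1 and none of Cd4) took 198. A further 137 T cells had no CD8 UMI, of which 36 had a Cd4 UMI. Blood endothelium took 401 cells, of which 131 carried at least 2 of the 4 endocardial markers Npr3, Cytl1, Tmem108 and Gfpt2. Macrophages took 1732 and fibroblasts 4826 cells. Levels of genes used for the gating describe the gates and do not test them: Ncr1 had 491 CPM (counts per 1000000 UMIs of the gate) in NK-gated cells and 5.24 CPM in CD8 T cells, and Cd3e had 2.92 CPM in NK-gated cells and 838 CPM in CD8 T cells. There were 568 barcodes that met gates of more than 1 lineage, with a median of 8960 UMIs, and 390 cells met no gate. Both sets were left out. Intervals are 95% exact intervals and cover counting error in this 1 library. With all mice in 1 pool the samples had no replicate and cells do not stand in for one, so nothing was tested for significance. In droplet data, free RNA gives UMIs in cells that do not express a gene, and the level in fibroblasts is given as that background for the lymphocyte genes.

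The effector genes were concentrated in NK and T cells. The 426 cells of the NK and T gates, including 4 with UMIs of both Cd4 and CD8 genes, held 81.9% of the Ifng UMIs, 74.7% of Prf1, 73.4% of Gzma, 71.8% of Ccl5 and 69.4% of Gzmb. The gates of all other cell types together held 5.64% of Ifng, 5.37% of Gzma, 5.11% of Prf1, 4.23% of Gzmb and 7.96% of Ccl5, and the rest lay in mixed or ungated barcodes. Fibroblasts had 0.948 CPM of Ifng, 4.07 of Gzma, 1.08 of Gzmb, 0.359 of Prf1 and 24.7 of Ccl5. Cxcr3 was spread more widely: NK and T cells held 45.4% of its UMIs and macrophages 21.2%.

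**Figure D1:**
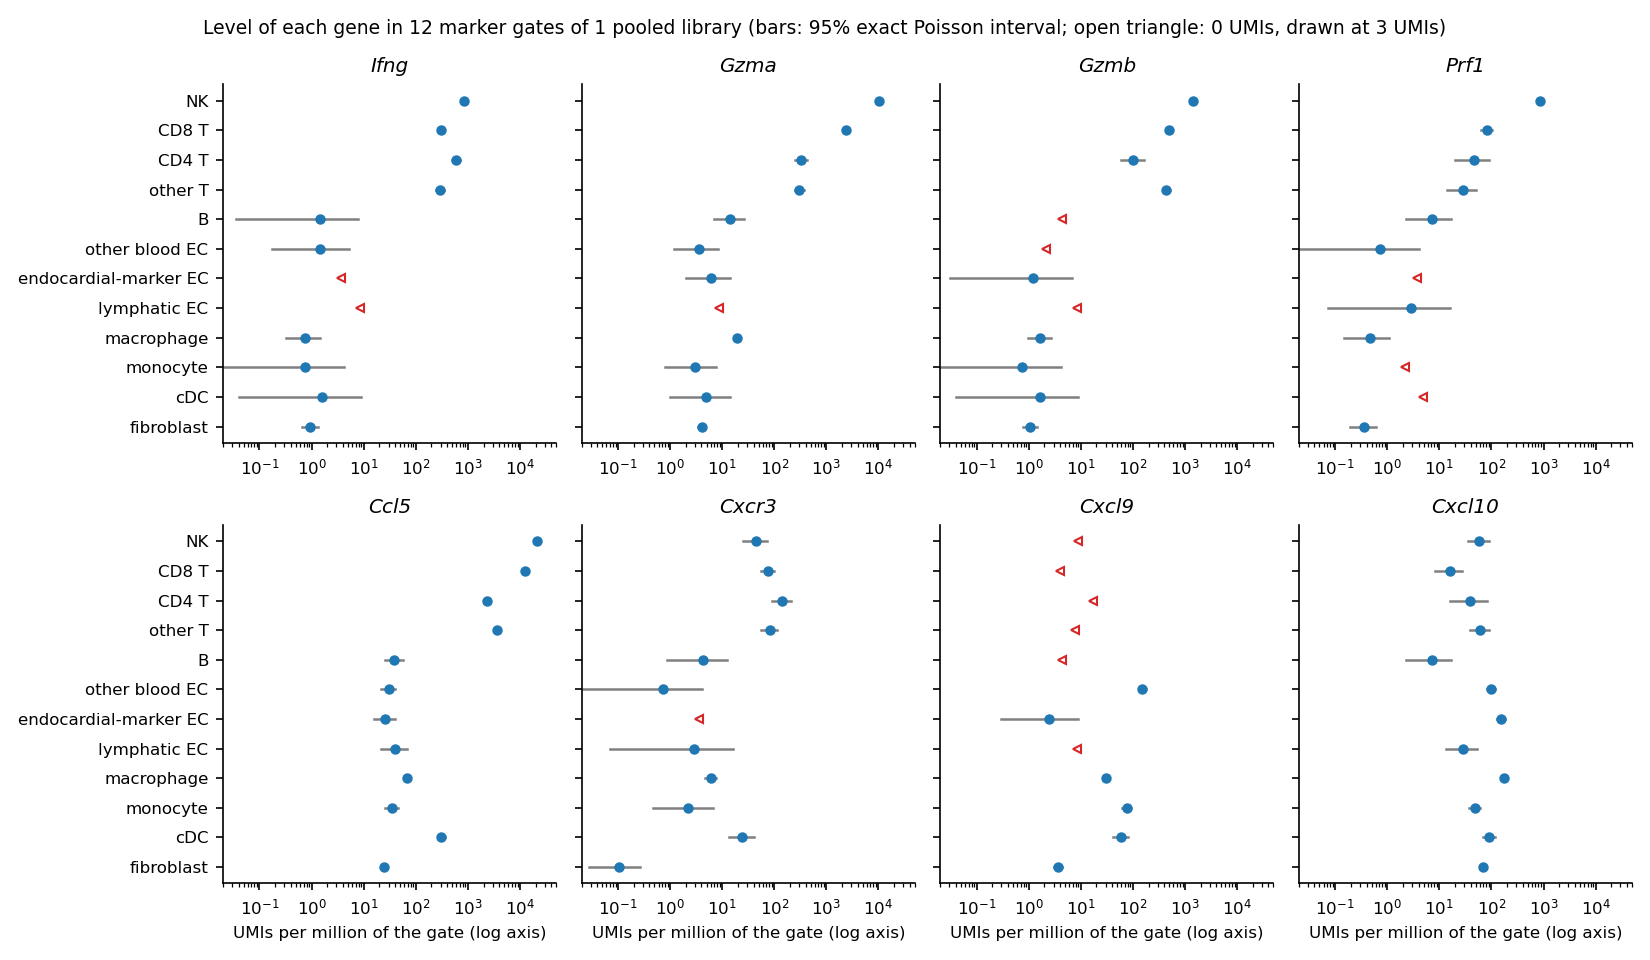
Level of each gene (CPM of the gate, log axis) in the gates drawn, with 95% exact Poisson intervals. An open triangle marks 0 UMIs and stands at the level of 3 UMIs. The lymphocyte genes were highest in NK and T gates, with fibroblast Ifng at 0.948 CPM, and Cxcl9 had 0 UMIs in every NK, T and B gate.

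NK-gated cells carried the highest level of all 4 cytotoxic and cytokine transcripts, Ifng, Gzma, Gzmb and Prf1, and of Ccl5. Between NK-gated and CD8 T cells a gene was called higher or lower at a ratio of at least 2 either way with at least 20 UMIs on both sides together. By that rule 7.83% of 6043 genes were higher and 9.1% lower in NK-gated cells, and of the 8 genes Ifng, Gzma, Gzmb, Prf1 and Cxcl10 were higher and none was lower. The Cxcl10 call rested on 20 UMIs in NK-gated cells, 12 of them in 1 cell, and 12 UMIs in CD8 T cells. Ccl5 and Cxcr3 fell short of it, and Cxcl9 had no UMI on either side.

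Of these genes Prf1 had the highest ratio. The perforin gene lies at chr10:61297833-61304680 on the plus strand. NK-gated cells had 0 to 17 Prf1 UMIs each, with a median of 3, whereas CD8 T cells had 0 to 10, with a median of 0. The level was 874 CPM in NK-gated cells (778 to 979) and 81.2 CPM in CD8 T cells (62.3 to 104), a ratio of 10.8 (8.17 to 14.4). In CD8 T cells, 33 of the 42 cells with Prf1 had a single UMI, while 59 of the 87 NK-gated cells had at least 2.

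Granzymes A and B were also higher in NK-gated cells, and Gzma was by far the more abundant in UMIs. NK-gated cells had 0 to 150 Gzma UMIs, with a median of 36, and CD8 T cells 0 to 220, with a median of 0. The gate levels of Gzma (chr13:113093825-113100981, minus strand) were 10058 CPM in NK-gated cells and 2388 CPM in CD8 T cells, a ratio of 4.21 (3.98 to 4.46). The highest single cell was a CD8 T cell, although only 41 of 198 CD8 T cells had any Gzma UMI against 75 of 87 NK-gated cells. Gzmb (chr14:56258838-56262260, minus strand) had 1427 CPM in NK-gated cells and 490 CPM in CD8 T cells, a ratio of 2.91 (2.54 to 3.34). Gzmb belongs to a cluster of similar granzyme genes, and how reads shared among them were assigned is not given in the sources used here.

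Ifng (chr10:118441046-118445892, plus strand) had 842 CPM in NK-gated cells (748 to 945) and 305 CPM in CD8 T cells (267 to 347), a ratio of 2.76 (2.31 to 3.29). Its UMIs were spread unevenly over the cells. Per cell, NK-gated cells had 0 to 62 UMIs with a median of 1, and CD8 T cells 0 to 38 with a median of 0. The 10 cells with most Ifng held 61.1% of its UMIs in the NK gate and 63.5% in the CD8 T gate, whereas the same share for Ccl5 was 29.5% in the NK gate and 26.5% in the CD8 T gate. The rest of the Ifng UMIs was thinly spread, and 40 of 87 NK-gated cells had none.

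Ccl5 (chr11:83525778-83530518, minus strand) was the most abundant of the 8 genes in both gates. Per cell it had 0 to 367 UMIs with a median of 74 in NK-gated cells, and 0 to 273 with a median of 9 in CD8 T cells. The levels were 21508 CPM in NK-gated cells and 12414 CPM in CD8 T cells, a ratio of 1.73 (1.68 to 1.79). All but 1 of the 87 NK-gated cells had a Ccl5 UMI, and 84 had at least 10. Among CD8 T cells, 65 had none and 59 had at least 50, so that gate ranged from cells without Ccl5 to cells at NK levels.

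Cxcr3, the receptor for CXCL9 and CXCL10 (chrX:101731535-101734269, minus strand), was sparse throughout. It had 43.9 CPM in NK-gated cells (15 UMIs) and 74.7 CPM in CD8 T cells (57 UMIs), a ratio of 0.587 whose interval of 0.309 to 1.05 includes 1. The 36 CD4 T cells had 142 CPM, but 15 of their 25 Cxcr3 UMIs came from 1 cell. Conventional dendritic cells had 24.2 CPM and macrophages 6.01 CPM, both above the 0.102 CPM in fibroblasts. The order from CD4 T cells through other T, CD8 T and NK-gated cells was not resolved at this depth, since the interval of every neighbouring ratio included 1.

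**Figure D2:**
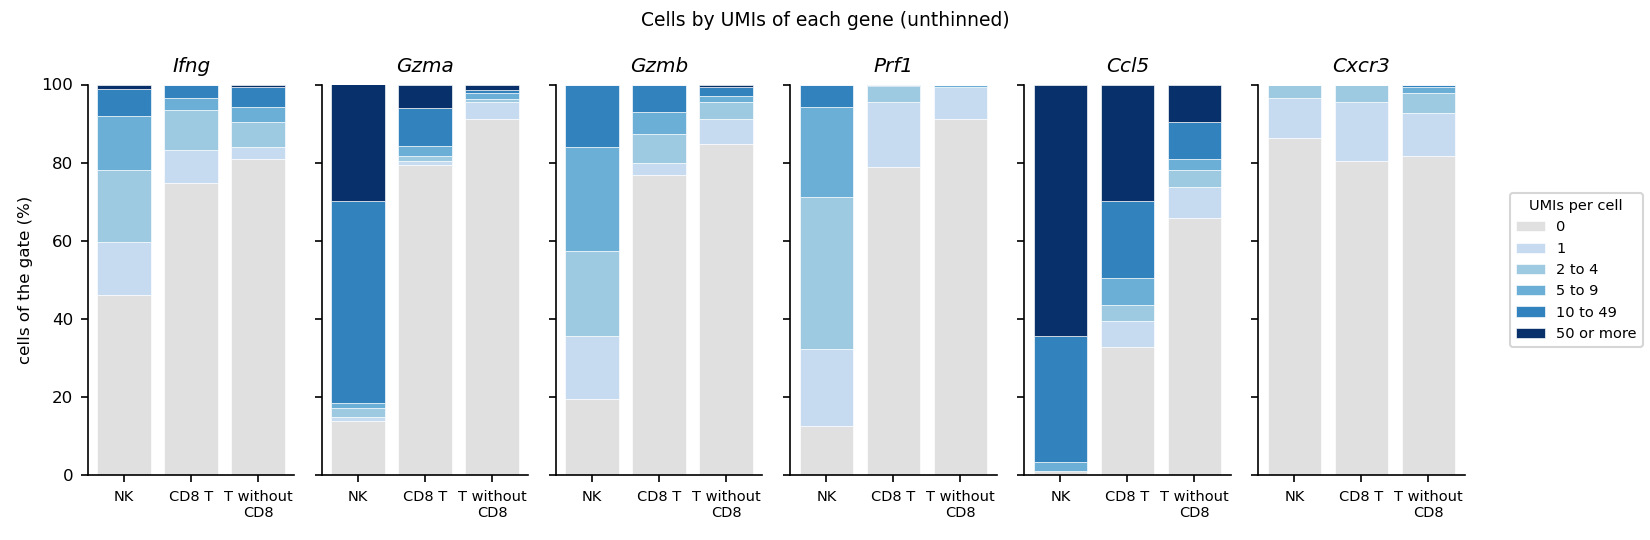
Share of cells (%) by UMIs per cell of the lymphocyte genes in NK-gated cells, CD8 T cells and T cells without CD8, before thinning. For Gzma, 26 of 87 NK-gated cells and 12 of 198 CD8 T cells had at least 50 UMIs.

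Depth was alike in the lymphocyte gates. Median UMIs per cell were 3468 in NK-gated, 3464.5 in CD8 T cells and 3266 in T cells without CD8. After every cell was thinned to 2500 UMIs, which no cell fell below, Prf1 was found in 74.7% of NK-gated cells and 13.6% of CD8 T cells, Gzma in 86.2% of NK-gated and 19.7% of CD8 T cells, and Gzmb in 72.4% of NK-gated and 22.7% of CD8 T cells. Ifng was found in 41.4% of NK-gated and 19.2% of CD8 T cells. Ccl5 was found in 98.9% of NK-gated and 64.6% of CD8 T cells. In thinned fibroblasts the shares were 0.145% for Prf1, 1.37% for Gzma, 0.269% for Gzmb, 0.186% for Ifng and 5.47% for Ccl5, and in B cells, a lymphocyte gate with a median of 3421 UMIs, they were 0% for Prf1 and Gzmb, 3.95% for Gzma, 0.658% for Ifng and 10.5% for Ccl5. The NK and CD8 T shares all lay above both.

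The granule genes were found together in most NK-gated cells and in few CD8 T cells. All 3 of Gzma, Gzmb and Prf1 were detected in 58 of 87 NK-gated cells (66.7%) and in 18 of 198 CD8 T cells (9.09%). None of the 3 was detected in 3 NK-gated cells and in 128 CD8 T cells. Ifng without any of the 3 was found in 0 of 87 NK-gated cells and in 19 of 198 CD8 T cells (9.6%). For the 0, the exact interval reaches 4.15%, and 3 cells in its place would be 3.45%.

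Within the CD8 T gate the genes were often detected in the same cells. Gzmb was detected in 36 of 41 cells with Gzma and in 10 of 157 cells without it. It was detected in 25 of 50 cells with Ifng and in 21 of 148 without it. Ccl5 was found in 46 of the 50 cells with Ifng and 87 of the 148 without. In the NK gate, cells with and without Ifng were more alike: Gzmb was found in 36 of 47 cells with Ifng and 34 of 40 without, and Prf1 in 40 of 47 with and 36 of 40 without. The part of depth in these counts was not tested.

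CD8 T cells differed by their naive genes. The cells were divided by how many of 6 genes of naive and central memory T cells were detected (Ccr7, Lef1, Tcf7, Il7r, S1pr1 and Klf2), with the dividing numbers set after the data had been seen. Gzmb had 1415 CPM in the 52 cells with 0 to 2 of these genes, 422 CPM in the 49 cells with 3 to 4 and 5.35 CPM in the 97 cells with 5 to 6. Gzma had 7787 CPM, 905 CPM and 82.9 CPM in the same order. Without the top cell of each set, the second set had 202 CPM of Gzmb and 601 CPM of Gzma, and the last had 2.71 CPM of Gzma. Ccl5 followed with 31216, 10087 and 3021 CPM, so the CD8 T cells with fewest naive genes exceeded the NK gate's 21508 CPM. Ifng had 731 CPM in the first set, beside 842 CPM in the NK gate, and 150 and 142 CPM in the other sets, whose intervals overlap. In the first set 38 of 153 Ifng UMIs came from 1 cell, without which the level was 558 CPM. In the last set 33 of 53 Ifng UMIs came from 1 cell, without which the level was 53.9 CPM. Prf1 had 110, 94.4 and 58.8 CPM with overlapping intervals, and 10 of the 17 UMIs of the second set came from 1 cell, without which it had 40.2 CPM. Thus even the CD8 T cells with the most granzyme were well under the 874 CPM of Prf1 in NK-gated cells. Median depth was 3235, 3106 and 3598 UMIs across the sets.

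**Figure D3:**
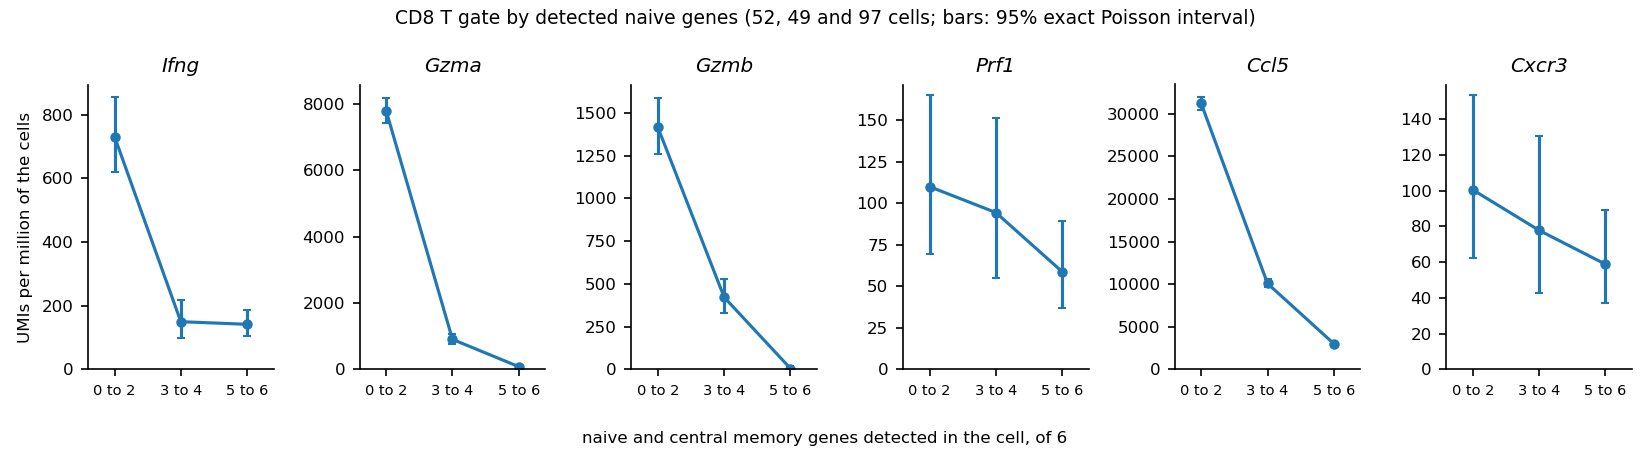
Level (CPM of the cells) of the lymphocyte genes in CD8 T cells with 0 to 2, 3 to 4 and 5 to 6 of the naive and central memory genes detected, with 95% exact Poisson intervals. Gzmb stands at 1415, 422 and 5.35 CPM, while the Prf1 and Cxcr3 intervals overlap.

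NK-gated cells also held an unlike minority. In 11 cells with at least 2 of 5 ILC1 genes (innate lymphoid cells that resemble NK cells), Gzma had 22.8 CPM, from a single UMI, against 11534 CPM in the other 76. Gzmb had 593 CPM in these 11 cells and 1550 CPM in the others, Ifng 296 against 922 CPM (148 CPM in the 11 without their top cell), Prf1 479 against 932 CPM, and Ccl5 11742 against 22945 CPM. Of the genes compared, the gap for Gzma was therefore the widest. Division by NK maturation genes gave smaller gaps: Prf1 had 1046 CPM in 39 cells with at least 2 of 5 maturation genes and 724 CPM in 48 cells with 0 or 1, and Ifng had 677 CPM in the first set and 987 CPM in the second. Of the 180 Ifng UMIs of the second set, 62 came from 1 cell. Without the top cell of each set Ifng had 537 CPM in the first and 671 CPM in the second. These sets were also divided after the data had been seen.

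CD8 T cells had more Gzma, Prf1 and Ccl5 than T cells without CD8, but not more Ifng. CD8 T cells had 2388 CPM of Gzma and T cells without CD8 had 312 CPM, a ratio of 7.66 (6.56 to 8.98). For Ccl5 the levels were 12414 CPM in CD8 T cells and 3262 CPM in T cells without CD8, a ratio of 3.81. For Prf1 they were 81.2 and 33.3 CPM in the same order, a ratio of 2.44. These 3 genes were called higher and Cxcl10 lower, where 3.77% of 6711 genes were called higher and 6.66% lower. Gzmb had 490 CPM in CD8 T cells and 333 CPM in T cells without CD8, under the 2-fold rule, but 78 of the 190 Gzmb UMIs of the T cells without CD8 came from 1 cell. Without the top cell of each gate the ratio was 2.18, past the rule. Ifng had 305 CPM in CD8 T cells and 385 CPM in T cells without CD8, a ratio of 0.792 (0.656 to 0.957). Of the 105 Ifng UMIs in CD4 T cells, 63 came from 1 cell. Among the T cells without CD8, 22 had a UMI of the gamma-delta T cell gene Trdc: they had 80 Ifng UMIs in 4 cells (768 CPM) and 0 Gzma UMIs. Of those 80 UMIs, 63 came from the same Cd4-positive cell, and without it the level was 174 CPM.

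Many other genes of the lymphocyte programme were also higher in NK-gated cells. Of 13 receptors and transcription factors of type 1 lymphocytes, 12 could be measured between NK-gated and CD8 T cells, and 8 were higher and 0 lower in NK-gated cells. Il2rb, a chain of the IL-2 and IL-15 receptor, had 629 CPM in NK-gated cells and 181 CPM in CD8 T cells. Runx3 (444 CPM in NK-gated and 392 CPM in CD8 T cells) and Hopx (330 CPM in NK-gated and 344 CPM in CD8 T cells) were not called. Among 18 other effector genes, 14 could be measured, with 9 higher and 3 lower in NK-gated cells. Nkg7, a granule membrane protein gene, had 3816 CPM in NK-gated cells and 1404 CPM in CD8 T cells, and the chemokine gene Ccl4 had 2833 CPM in NK-gated and 448 CPM in CD8 T cells. Srgn, which encodes the granule proteoglycan serglycin, had 1827 CPM in NK-gated and 1836 CPM in CD8 T cells. The median log2 ratio was 1.25 over the measured receptors and transcription factors and 1.30 over the measured effector genes, against 0.02 over all genes tested.

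Some effector genes outside the 8 were chosen here after their values were seen. Gzmc, a neighbour of Gzmb on chromosome 14, had 408 UMIs in 7 of the 87 NK-gated cells and 0 UMIs in CD8 T cells, while Gzmk ran the other way with 29.2 CPM in NK-gated and 134 CPM in CD8 T cells. The 6 listed cytokine genes that prime these lymphocytes had, summed, 270 CPM in mesothelial cells, 156 CPM in monocytes and 151 CPM in macrophages. Conventional dendritic cells had 144 CPM of them and fibroblasts 28.0 CPM. Il12b, a subunit of IL-12, had 58.2 CPM in conventional dendritic cells and 0.185 CPM in macrophages. Il18 had 262.8 CPM in mesothelial cells (39 UMIs in 13 of 21 cells), 68.5 CPM in monocytes and 43.3 CPM in macrophages.

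Some small levels of the lymphocyte genes outside the NK and T gates leaned on few cells, although Ccl5 had a UMI in 1191 of 7627 cells there. In macrophages, 175 of 207 Gzma UMIs came from 3 cells with 1 or 2 NK markers, and the 1729 other macrophages shared 32 UMIs. Conventional dendritic cells had 310 CPM of Ccl5, but 81 of their 192 UMIs came from 1 cell and 18 of 73 cells had any. In macrophages Ccl5 had 69.3 CPM, and 1 cell gave 156 of 749 UMIs. Whether such cells are joint captures of 2 cells was not tested.

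Cxcl9 and Cxcl10 were detected mainly in other cells. Blood endothelium, macrophages and fibroblasts held 74.7% of the Cxcl9 UMIs and 81.3% of the Cxcl10 UMIs. These gates also held most of all cells, so the shares show no concentration in them. Together they had 13.3 CPM of Cxcl9 and 93.2 CPM of Cxcl10, near the 14.2 and 91.3 CPM over all analysed cells. The 574 cells of the NK, CD8 T, CD4 T, other T and B gates had 0 UMIs of Cxcl9 and 68 UMIs of Cxcl10 (1.14%). These are few cells, and their Cxcl10 level was 28.6 CPM. Other T cells had 60.8 CPM and NK-gated cells 58.5 CPM, near the 69.2 CPM of fibroblasts. The genes are neighbours on the minus strand of chromosome 5 (Cxcl9 at chr5:92321347-92328079 and Cxcl10 at chr5:92346638-92348889), next to Cxcl11 at chr5:92359544-92365485. Their RefSeq promoters (GRCm38.p6, minus strand, 250 bases before to 50 after the start) are printed because the genes lie side by side while their levels were ordered differently over the gates. Capitals mark matches to the core of the interferon-stimulated response element (GAAA, any 2 bases, then GAAA) and to the NF-kB motif (GGGA, any 4 bases, then CC). Both were searched on either strand, as was the gamma-activated sequence (TTC, any 3 bases, then GAA).
Cxcl9, chr5:92328030-92328329: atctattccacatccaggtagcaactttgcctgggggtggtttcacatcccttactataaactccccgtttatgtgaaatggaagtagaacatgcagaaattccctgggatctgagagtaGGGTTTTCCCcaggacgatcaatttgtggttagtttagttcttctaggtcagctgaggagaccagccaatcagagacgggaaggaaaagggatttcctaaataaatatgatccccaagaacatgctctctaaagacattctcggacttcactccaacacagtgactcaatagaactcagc
Cxcl10, chr5:92348840-92349139: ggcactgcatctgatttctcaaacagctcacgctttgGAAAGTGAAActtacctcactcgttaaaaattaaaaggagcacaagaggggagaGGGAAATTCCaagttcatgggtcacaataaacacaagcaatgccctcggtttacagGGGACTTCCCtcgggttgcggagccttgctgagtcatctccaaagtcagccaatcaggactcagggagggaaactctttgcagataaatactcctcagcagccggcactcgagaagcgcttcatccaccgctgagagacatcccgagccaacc
The Cxcl10 window held 1 response element match, from -213 to -204 relative to the start, and NF-kB matches from -159 to -150 and from -103 to -94, of which the last reads as a match on both strands. The Cxcl9 window held 1 NF-kB match from -130 to -121, on the strand opposite to the one printed. Of 32851 promoters of the same length, 3.44% held the response element core, 20.7% the NF-kB motif and 8.30% the gamma-activated sequence, which was in neither window. A match is a run of letters and is not evidence that a factor binds there.

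The level of Cxcl9 was highest in blood endothelium outside the endocardial set. There 58 of 270 cells had 1 to 50 Cxcl9 UMIs, in all 213, or 153 CPM (133 to 175). In the 131 endocardial-marker cells there were 2 UMIs in 2 cells, or 2.44 CPM. The ratio was 62.8 with an interval of 17.2 to 522, in a comparison added after the data had been seen, where 8.77% of 9051 genes were called higher in the other blood endothelium and 8.05% lower. The ratio was 25.4 with 1 more marker required per gate. That setting also asked for 1 more endocardial marker and counted endothelial cells that missed it as other blood endothelium. The endocardial-marker set fell from 131 to 68 cells and the other set grew from 270 to 323. Thinned to equal depth, 13.0% of the other blood endothelium and 0.763% of the endocardial-marker cells had a Cxcl9 UMI. Lymphatic endothelium had 0 UMIs in 67 cells. Pericytes had 132 CPM, from 19 UMIs in 1 of 32 cells, so their level and that of the other blood endothelium were not told apart (ratio of neighbours 1.16, 0.723 to 1.96).

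Endothelium was higher in Cxcl9 than macrophages and fibroblasts. Blood endothelium as a whole had 97.2 CPM, against 31.1 CPM in macrophages, a ratio of 3.13 (2.62 to 3.72). Against the 3.64 CPM of fibroblasts its ratio was 26.7 (21.5 to 33.3), and macrophages stood 8.55-fold over fibroblasts (7.00 to 10.5), or 14.1-fold with 1 more marker required per gate. Between endothelium and macrophages 26.2% of 13193 genes were called higher and 15.7% lower. Between endothelium and fibroblasts 17.2% of 16390 were higher and 14.1% lower, and between macrophages and fibroblasts 16.6% of 17159 were higher and 31.6% lower. Calls of this size were thus common among genes of these gates.

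The way the Cxcl9 UMIs were spread differed too. In macrophages 19 of 1732 cells held all 336 UMIs, 10 of them 95.5% and 1 of them 81 UMIs. In fibroblasts 31 of 4826 cells held 142 UMIs, with 49 in 1 cell. In the other blood endothelium 10 cells held 71.8%, and most of the rest had a single UMI. Monocytes had 75.9 CPM from 4 of 244 cells, of which 1 held 68 of the 102 UMIs, and conventional dendritic cells had 58.2 CPM from 4 of 73 cells.

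Cxcl10 was less selective. The highest level, 431 CPM in pericytes, came from 62 UMIs of which 59 were in 1 cell. The ILC2 gate of innate lymphoid cells came next with 178 CPM, from 15 UMIs over its 25 cells. It was not told apart from macrophages (ratio of neighbours 1.02, 0.571 to 1.69). Macrophages had 174 CPM (1886 UMIs, 239 of 1732 cells), endocardial-marker endothelium 154 CPM (126 UMIs, 14 of 131 cells), other blood endothelium 99.2 CPM (138 UMIs, 31 of 270 cells) and fibroblasts 69.2 CPM (2701 UMIs, 364 of 4826 cells). Macrophages and endocardial-marker cells were not told apart, since the interval of their ratio, 0.948 to 1.37, includes 1. Unlike Cxcl9, Cxcl10 was lower in the other blood endothelium than in the endocardial-marker cells, with a ratio of 0.645 (0.503 to 0.828). The ratio was 0.896 with 1 more marker required per gate, where part of the endocardial-marker cells were counted as other blood endothelium.

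By the 2-fold rule, Cxcl10 was called only between macrophages and fibroblasts among these comparisons, at 2.52-fold (2.38 to 2.68). Blood endothelium had 119 CPM, against 174 CPM in macrophages, a ratio of 0.684 (0.599 to 0.778). Against fibroblasts the ratio of endothelium was 1.73 (1.51 to 1.96), and as a mean over cells it was 2.01, past the rule. After thinning, 9.47% of macrophages, 9.16% of endocardial-marker cells, 7.41% of other blood endothelium and 4.04% of fibroblasts had a Cxcl10 UMI, against 0.658% of B cells. A handful of cells carried much of the fibroblast sum: 2 cells had 306 UMIs each and 10 cells held 49%.

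**Figure D4:**
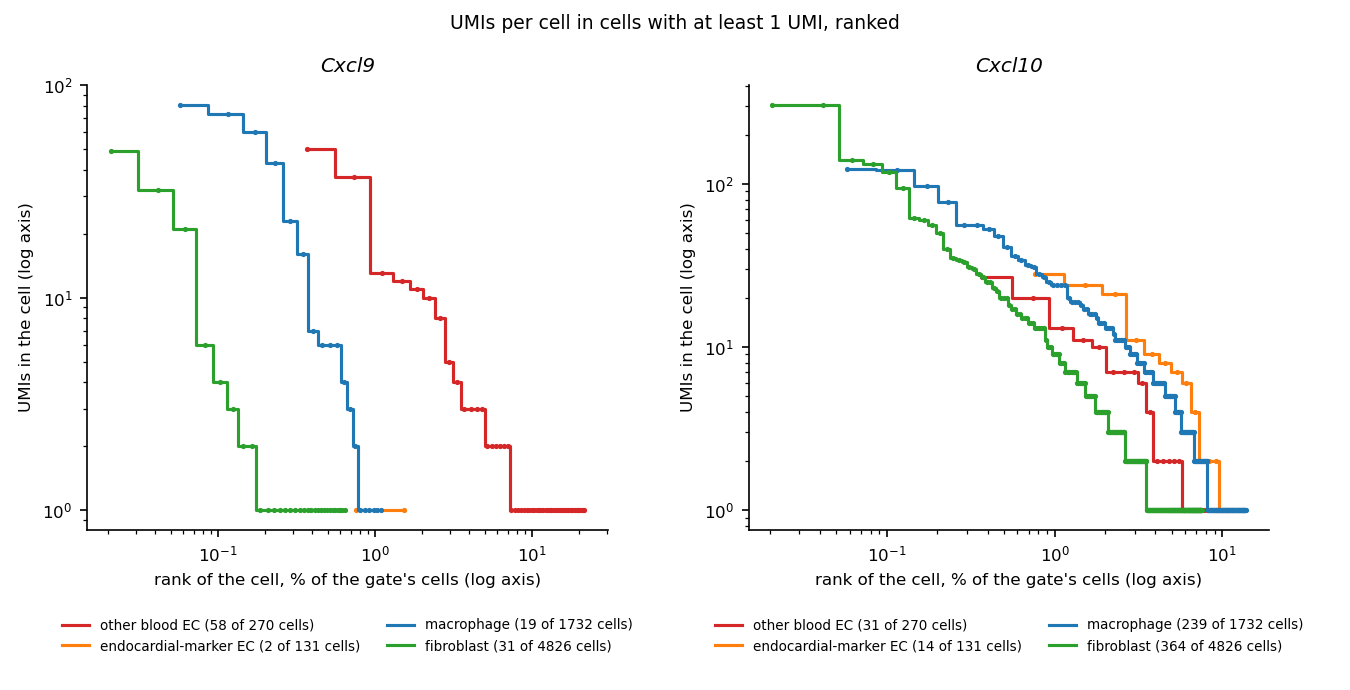
UMIs per cell (log axis) against the rank of the cell as a percentage of its gate (log axis), for cells with at least 1 UMI of Cxcl9 or Cxcl10. Cxcl9 reached 58 of 270 cells of the other blood endothelium and 2 of 131 endocardial-marker cells, while Cxcl10 was found in 31 and 14 of the same cells.

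Cxcl10 was detected more often in cells with Cxcl9 than in cells without it in the other blood endothelium and in macrophages, and at near equal shares in fibroblasts. In the other blood endothelium Cxcl10 was detected in 12 of 58 cells with Cxcl9 and in 19 of 212 without it, or 20.7% and 8.96%. In macrophages it was detected in 9 of 19 cells with Cxcl9 and in 230 of 1713 without, or 47.4% and 13.4%. In fibroblasts the counts were 3 of 31 with Cxcl9 and 361 of 4795 without, or 9.68% and 7.53%. Cxcl11, which encodes the other CXCR3 ligand in this cluster, had at most 1.48 CPM in the macrophage, endothelial and fibroblast gates. The atypical receptor gene Ackr1, whose product binds many chemokines, had 46.0 CPM in the other blood endothelium and 0 UMIs in the endocardial-marker cells.

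Cells with these chemokines were compared with cells of their own gate that had neither, over 25 other targets of interferon-gamma and 16 genes stimulated by type I interferon. The cells were chosen on the chemokines and not on these genes, but many genes respond to both interferons. In macrophages and fibroblasts most UMIs of the type I list came from Ifi27l2a, so its sums are given without that gene, a choice made after the data had been seen.

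In macrophages, cells with Cxcl9 had more of both lists than cells with neither, 2.85-fold for interferon-gamma targets and 4.24-fold for type I genes. The sum of the interferon-gamma targets was 2992 CPM in the 19 cells with Cxcl9, 1272 CPM in 230 cells with Cxcl10 only and 1050 CPM in 1483 cells with neither. Without the cell that gave most of them, the first value was 2758 CPM. Gbp2, a guanylate-binding protein gene of antimicrobial defence, had 375 CPM in cells with Cxcl9, 34.0 CPM in cells with Cxcl10 only and 16.6 CPM in cells with neither. Of 17 measured targets 13 were at least 2-fold higher in cells with Cxcl9 than in cells with neither, where 26.9% of all 11488 measured genes were. In cells with Cxcl10 only, 3 of 17 targets were, against 2.13% of 11838 genes. The type I genes reached 1978 CPM with Cxcl9, 1144 CPM with Cxcl10 only and 466 CPM with neither. At least 2-fold higher than in cells with neither were 11 of 15 measured type I genes with Cxcl9 and 11 of 16 with Cxcl10 only. In these calls 3 UMIs stood in where a set had none, so a gene without any UMI in the 19 cells with Cxcl9 could be called higher. How many such calls the 13 targets, the 11 of 15 type I genes and the 26.9% hold was not determined.

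In fibroblasts, cells with Cxcl10 stood out for type I interferon genes. Their sum was 712 CPM in 31 cells with Cxcl9, 1579 CPM in 361 cells with Cxcl10 only and 334 CPM in 4434 cells with neither. The ratio of cells with Cxcl9 to cells with Cxcl10 only was 0.451 (0.392 to 0.516). Ifit3, an antiviral gene induced by type I interferon, had 87.4 CPM with Cxcl9, 303 CPM with Cxcl10 only and 45.8 CPM with neither. Of 16 type I genes 14 were at least 2-fold higher in cells with Cxcl10 only than in cells with neither, where 2.94% of 15968 genes were. Interferon-gamma targets ran the other way, with 1305 CPM with Cxcl9, 883 CPM with Cxcl10 only and 481 CPM with neither. The first of these values rested on 1 cell: without it the sum was 872 CPM in cells with Cxcl9, close to that in cells with Cxcl10 only. With Cxcl9, 12 of 17 measured targets were at least 2-fold higher than in cells with neither, where 29.6% of 15747 genes were. With Cxcl10 only, 7 of 17 targets were, against the 2.94% of all genes. Here too 3 UMIs stood in for 0, so a gene without any UMI in the 31 cells with Cxcl9 could be called higher. How many such calls the 12 targets and the 29.6% hold was not determined.

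Endothelium had more of the interferon-gamma targets even in cells without the chemokines. In the other blood endothelium their sum was 2731 CPM in 58 cells with Cxcl9, 2893 CPM in 19 cells with Cxcl10 only and 1628 CPM in 193 cells with neither. With Cxcl9, 5 of 15 measured targets were at least 2-fold higher than in cells with neither, where 3.61% of 7321 genes were. With Cxcl10 only, 4 of 14 were, against 5.5% of 6821 genes. Irf1, a transcription factor gene induced early by interferon-gamma, had 362 CPM with Cxcl9, 626 CPM with Cxcl10 only and 217 CPM with neither. Socs1, a feedback inhibitor of the pathway, had 105, 88.0 and 23.1 CPM in the same order. In the endocardial-marker cells the sum of targets was 2471 CPM in 13 cells with Cxcl10 only and 1260 CPM in 116 with neither, and 7 of 12 measured targets were at least 2-fold higher, where 6.12% of 5818 genes were. Type I genes without Ifi27l2a had 1224 CPM with Cxcl10 only and 448 CPM with neither in the same endocardial-marker cells, a ratio of 2.73 (2.18 to 3.41), beside 1.96 (1.68 to 2.28) for the targets. Without the cell that gave most of each sum, type I genes had 811 CPM with Cxcl10 only and 422 CPM with neither. The targets then had 2159 and 1222 CPM in the same order. In the other blood endothelium the type I sum was 1462 CPM with Cxcl9, 890 CPM with Cxcl10 only and 1064 CPM with neither. Its ratio to cells with neither was 1.37 (1.23 to 1.54) with Cxcl9 and 0.836 (0.668 to 1.04) with Cxcl10 only. Cells chosen for a transcript also tend to be deeper, and in fibroblasts the median was 9354 UMIs with Cxcl9, 8747 with Cxcl10 only and 7524.5 with neither. In endothelial and macrophage cells with Cxcl9 the medians were 4351.5 and 7694 UMIs, beside 4643 and 5532 UMIs in cells of the same gates with neither. The part of depth in these values was not tested.

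**Figure D5:**
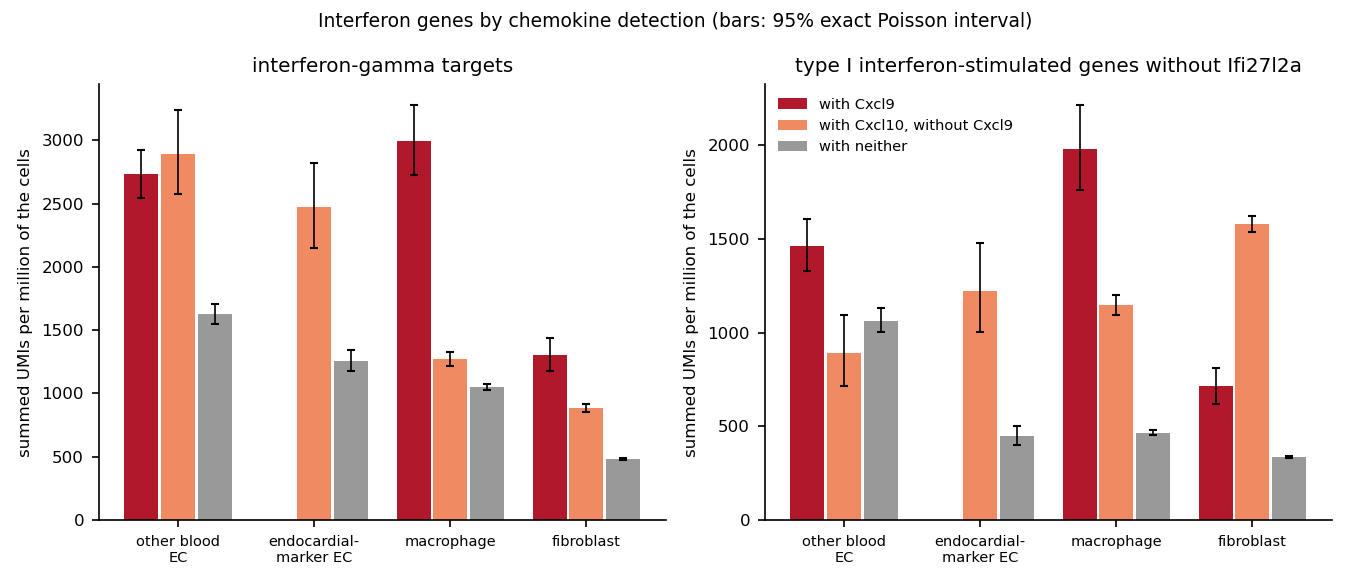
Summed level (CPM of the cells), with 95% exact Poisson intervals, for interferon-gamma targets and for type I interferon-stimulated genes without Ifi27l2a, in cells with Cxcl9, with Cxcl10 only and with neither. Endocardial-marker cells with Cxcl9 are not drawn, since there were 2. In fibroblasts the type I sum was 1579 CPM in cells with Cxcl10 only and 712 CPM in cells with Cxcl9.

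Between whole gates most of the same targets were higher in endothelium than in fibroblasts, while against macrophages most were not called higher. Of 18 measured targets 15 were higher and 0 lower in blood endothelium than in fibroblasts, beside 17.2% higher and 14.1% lower of all genes. Their median log2 ratio was 1.65 beside 0.05 over all genes tested. Iigp1, a GTPase gene of defence against intracellular pathogens, had 355 CPM in endothelium and 58.2 CPM in fibroblasts, and the immunoproteasome gene Psmb8 had 315 CPM in endothelium and 95.2 CPM in fibroblasts. Against macrophages 8 of 19 targets were higher in endothelium and 1 lower, while 10 were called neither way, beside 26.2% higher and 15.7% lower of all genes. The median log2 ratio was 0.68 beside 0.35 over all genes tested, and Psmb8 had 315 CPM in endothelium and 395 CPM in macrophages. The receptor gene Ifngr1 had 271 CPM in blood endothelium, 356 CPM in macrophages and 308 CPM in fibroblasts, while NK-gated cells had 1561 CPM and CD8 T cells 846 CPM.

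The genes most like each member over 16 gates with at least 20 cells were found by Pearson's r of log2(CPM + 1). For Ifng they were Sh2d1a (r = 0.98), Sla2 and Gm2682. For Gzma they were Fasl (0.94), Klrc1 and Samd3, and for Gzmb Klrc1 (0.97), Samd3 and Gm2682. For Prf1 they were Ctsw (0.96), Myb and Klrc1, and for Ccl5 Gm14029 (0.97), Tbx21 and Klrc1. Genes like Cxcr3 included Ipcef1 (0.92) and Gm14029. Cxcl9 was most like Gm13033 (0.96, 77 UMIs), a feature listed by its Ensembl identifier only, and Nsl1, and Cxcl10 most like Akt1 (0.79), Dusp23 and Klhl18. The gates share 1 library, and these last rankings lean on the pericyte gate, where each of those genes peaked and 1 cell held most of both chemokines.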

How the data were processed

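The deposited matrix holds UMI counts per gene and barcode, raw and whole-numbered. The submitters' processing notes list mm10 as the build and STARsolo and Scanpy as tools, and versions and settings are not given in the sources used here. The 8 genes, the gene lists and the rule for named genes (at most 3 genes per list with most UMIs, and 3 genes most like each member) were chosen with earlier results of these data known. Gate thresholds were set at valleys in the marker distributions after the data had been seen, without the 8 genes. 2 gamma-delta T cell markers had no feature, so Trdc stood alone. Doublets were called with Scrublet in scanpy 1.11.5 (Python 3.11.15, numpy 2.4.6, scipy 1.17.1, pandas 2.3.3) and removed. UMIs were summed per gate as CPM with 95% exact Poisson intervals, shares have Clopper-Pearson intervals, and ratios have exact conditional binomial intervals. The ratio intervals were run on simulated Poisson sums without spread between cells. That run cannot show how they perform where single cells hold many UMIs. All these intervals cover counting error only. Where one side of a ratio had 0 UMIs, 3 UMIs stood in for it. Shares were computed after thinning to 2500 UMIs. Positions come from GENCODE (GRCm38) and promoters from RefSeq, which matched 7 of the 8 genes. Alternatives kept doublets, required 1 more marker per gate, removed cells with markers of another lineage, kept only cells in clusters led by their lineage, averaged over cells, left out the top cell, or added mixed barcodes back. Some items are not reported here, and the naive-gene sets were counted without them.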

Additional observations from a re-analysis of the deposited data

How the results depend on the processing

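No paired analysis was possible because the data are 1 library with no replicates. Of 20 ratios, 0 changed direction under the alternatives run. Ratios that left their main interval were these. For NK-gated over CD8 T cells, Gzma was 4.53 with 1 more marker required, 4.50 without cells holding markers of another lineage, 4.99 as a mean over cells, 4.58 without the top cell and 3.61 with mixed barcodes added (chosen after seeing the data). Gzmb was 2.41 with 1 more marker, and Ccl5 was 1.91 with 1 more marker, 1.85 as a mean over cells and 1.66 with mixed barcodes. For CD8 T cells over T cells without CD8, Gzma was 9.50 without cells of another lineage's markers, 9.98 without the top cell and 10.2 with mixed barcodes. Gzmb was 1.76 with 1 more marker, 1.76 as a mean over cells and 2.18 without the top cell, where it passes 2-fold. Ccl5 was 3.59 with 1 more marker, 3.52 as a mean over cells, 4.32 without the top cell and 4.37 with mixed barcodes. For Cxcl9, endothelium over macrophages was 2.50 without cells of another lineage's markers and 4.45 as a mean over cells, endothelium over fibroblasts 39.3 with 1 more marker, and macrophages over fibroblasts 14.1 with 1 more marker and 11.3 without cells of another lineage's markers. For Cxcl10, endothelium over fibroblasts was 2.01 as a mean over cells, macrophages over fibroblasts were 2.72 with 1 more marker, 2.88 without cells of another lineage's markers and 2.72 as a mean over cells, and other blood over endocardial-marker endothelium was 0.896 with 1 more marker. The cause was not tested. For the endothelial sets, 1 more marker also moved endocardial-marker cells into the other blood endothelium, so the 2 sets were not only stricter. The Cxcl9 ratio between the endothelial sets ran between 25.4 and 96.1 under the alternatives. Keeping called doublets moved 0 of 20 ratios and 0 of 26 levels out of their intervals, but 11 of 26 shares of UMIs. Levels left their intervals in 19 of 26 cases without the top cell, 15 of 18 with mixed barcodes, 11 of 26 as a mean over cells, 10 of 26 with 1 more marker, 7 of 26 without cells of another lineage's markers and 3 of 20 in clusters. Those that moved by over 1.5 times were, with mixed barcodes, Ifng at 524 CPM in NK-gated cells and, in T cells without CD8, Ifng at 236, Gzma at 189 and Ccl5 at 2114 CPM. Without the top cell they were Gzmb at 199 and Prf1 at 19.5 CPM in T cells without CD8 and Cxcl9 at 2.38 CPM in fibroblasts and 1.23 CPM in endocardial-marker cells. Prf1 in T cells without CD8 was 20.4 CPM without cells of another lineage's markers, and Cxcl9 in endocardial-marker cells 4.67 CPM with 1 more marker. No cluster was led by NK-gated cells, so the cluster alternative gave no value for them. The small number of NK-gated and endothelial cells, 1 pooled library and the sparse Cxcr3 counts limit the depth of these results.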
